A study of Homo sapiens with 2 samples.

Results

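BBC3, PMAIP1, BID, BMF and BAX are the 5 genes described here, of 14884 named genes on the array, and they encode pro-apoptotic members of the BCL2 family. They were chosen by symbol, with earlier results of these arrays known, and their differences are therefore given as descriptions without a test. SNK6 is a human NK/T-cell lymphoma line that carries Epstein-Barr virus and was kept in interleukin-2. It was exposed for 72 h to romidepsin (1 array) or to romidepsin together with sildenafil (1 array). Romidepsin inhibits class I histone deacetylases and was present in both cultures. Sildenafil inhibits a phosphodiesterase that degrades cGMP and was added to the second culture only; its short form in the sample title was read as sildenafil because no other second drug is named in the protocol. The labels give no doses, and cultures without romidepsin were not analysed here, so no value below is a response to romidepsin. The comparison asks how these genes differ between deacetylase inhibition alone and the drug pair.

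The BCL2 family controls whether the outer mitochondrial membrane is breached during apoptosis. BAX and BAK1 are the effectors that form pores in this membrane, anti-apoptotic relatives such as BCL2, BCL-XL and MCL1 restrain them, and BH3-only proteins tip the balance by binding the restrainers or by activating the effectors. BBC3 encodes PUMA and PMAIP1 encodes NOXA, BH3-only proteins whose genes are switched on by several stress pathways. BID encodes a protein that is cut by caspase 8 and links death receptors to mitochondria, and BMF encodes a BH3-only protein held at the cytoskeleton in healthy cells.

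For orientation, the sequence around the transcription start of 3 of the genes is shown. These are BBC3, which stood furthest apart between the arrays, BID, which came next, and PMAIP1, which differed least. Each window runs from 250 bases before to 50 bases after a RefSeq transcription start on GRCh38.p14 and is written 5′ to 3′ on the gene's own strand. Capitals mark GGGCGG (a GC box), CACGTG (an E-box) and CCAAT, searched on both strands.
BBC3, chr19:47232618-47232917, minus strand: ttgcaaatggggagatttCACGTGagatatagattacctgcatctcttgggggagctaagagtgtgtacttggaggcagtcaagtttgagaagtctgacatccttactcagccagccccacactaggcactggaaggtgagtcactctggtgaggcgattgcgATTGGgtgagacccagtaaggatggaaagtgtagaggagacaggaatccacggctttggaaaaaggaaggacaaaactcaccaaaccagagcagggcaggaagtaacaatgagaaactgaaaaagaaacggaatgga
BID, chr22:17774420-17774719, minus strand: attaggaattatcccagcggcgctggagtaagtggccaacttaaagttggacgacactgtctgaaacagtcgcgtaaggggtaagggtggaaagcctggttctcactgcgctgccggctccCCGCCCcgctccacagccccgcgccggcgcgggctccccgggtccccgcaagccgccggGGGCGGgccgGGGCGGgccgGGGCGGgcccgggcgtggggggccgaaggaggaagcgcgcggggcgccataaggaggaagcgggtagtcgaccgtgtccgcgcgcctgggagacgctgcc
PMAIP1, chr18:59899746-59900045, plus strand: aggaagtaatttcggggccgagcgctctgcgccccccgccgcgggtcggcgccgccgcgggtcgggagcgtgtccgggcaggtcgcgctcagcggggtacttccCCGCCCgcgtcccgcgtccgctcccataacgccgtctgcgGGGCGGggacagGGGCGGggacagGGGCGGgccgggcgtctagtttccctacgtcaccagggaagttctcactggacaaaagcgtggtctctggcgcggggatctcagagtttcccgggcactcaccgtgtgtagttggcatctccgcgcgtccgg
The BBC3 window held no GC box, 1 E-box and 1 CCAAT, and 48.0% of its bases were G or C, with 5 CpG dinucleotides. The BID and PMAIP1 windows each held 4 GC boxes and no E-box, with G or C at 71.7% and 71.3% of bases and 37 and 42 CpG dinucleotides. The windows of BMF (65.0% G or C) and BAX (67.3%) held 2 GC boxes each, and the BAX window held 4 E-boxes and 2 CCAAT motifs. Across 27305 windows of this length, the median was 58.3% G or C and 14 CpG dinucleotides, 44.6% of windows held a GC box, 7.43% the E-box and 35.7% CCAAT. These matches describe letters in a short window and not binding. BBC3 has 7 RefSeq transcripts, and its window lies at a start 193 bases inside the gene's outermost end (BID 196 bases); which start SNK6 cells use was not analysed here.

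All values below are deposited log2 signals, so a difference of 1 is a doubling, and every difference is the signal with sildenafil minus the signal without it. Because probes differ in brightness, signals of different probe sets were not read as relative amounts of RNA. They were set side by side to choose genes of like signal, to rank genes by signal and to find nearest genes. Each group holds 1 array, so there is no replicate error, no test and no p-value, and batch and treatment cannot be told apart. Genes whose signal reached 3.91 on at least 1 array, the median of the whole table, were kept (10081 genes). The romidepsin column had a median of 3.89 and the combination column 3.92. Because noise on an array depends on signal, each gene was set beside the 500 kept genes nearest to it in mean signal, called genes of like signal; their spread describes these arrays and stands in for no replicate. As a check of the label, the NK cell genes PRF1 (8.83 without and 8.81 with sildenafil), NKG7 (8.50 and 8.23) and NCAM1, which encodes CD56 (6.63 and 6.54), passed on both arrays. Some other NK cell markers lay near or below the filter. GNLY (3.82 and 3.92) passed with sildenafil only, TYROBP stood at 4.23 and 4.33, and EOMES (3.21 and 2.90) did not pass. The keratin gene KRT18, a marker of other cell types, stood at 7.04 and 7.38, so these levels check the label only in part. Of 20 NK cell markers 12 were named and 11 passed, with 6 higher, 5 lower and a median of 0.01. TBX21 at 0.47, NKG7 at -0.27 and GZMM at 0.19 were furthest apart. Of all 14884 named genes 10081 passed, so passing the filter does not by itself mark a cell type. Of 9 T cell markers 4 were named and passed, 2 higher and 2 lower (CD6 at -0.25, CD5 at 0.24 and CD4 at 0.10). Of 26 markers of other cell types, 14 were named and 9 passed. These were the keratins KRT18 (0.34), KRT8 (-0.30) and KRT19 (-0.26), the platelet genes PF4 (0.32) and GP9 (0.10), the myeloid genes CSF1R (0.27) and CD68 (-0.11), and the B cell genes PAX5 (-0.18) and BLK (-0.04). Their part in the results was not tested, and fewer cells of a type cannot be told apart from less RNA per cell.

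Between the arrays, 1 of the 5 genes, BBC3, differed by at least 1.5-fold, beside 1.99% of all 10081 kept genes. Of these kept genes, 1.02% (103) were higher with sildenafil by that factor and 0.972% (98) lower; with both arrays centred on their medians the counts were 78 and 116. The other 4 lay within 1.5-fold. With sildenafil 3 of the 5 signals were higher and 2 were lower as deposited, with a median difference of 0.02. Over all kept genes 4757 were higher and 5282 lower, with a median of -0.01. After median centring 2 of the 5 were higher and 3 lower (median -0.01), beside 4058 higher and 6015 lower over all kept genes. As deposited, the 5 differences ran from -0.25 to 0.81. The 5 differences therefore did not share a sign on these arrays. Whether the genes moved together cannot be told, because 4 of the 5 differences lay within the spread of genes of like signal.

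**Figure D1:**
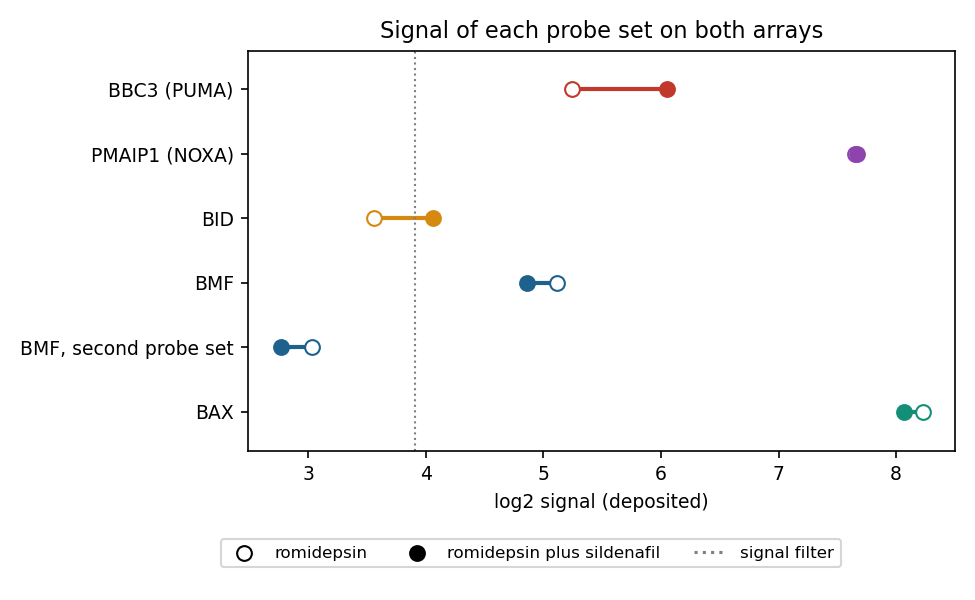
Deposited log2 signal (horizontal axis) of each probe set of the 5 genes, with open circles for the romidepsin array and filled circles for romidepsin plus sildenafil; the dotted line is the signal filter at 3.91. BBC3 moved from 5.24 to 6.05, BID crossed the filter from 3.56 to 4.06, and the circles of PMAIP1 nearly coincide at 7.65 and 7.67. Positions of different probe sets are not comparable as amounts of RNA.

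BBC3 (PUMA, gene ID 27113) had a log2 signal of 5.24 with romidepsin alone and 6.05 with romidepsin plus sildenafil. Its signal was 0.81 higher with sildenafil, a ratio of 1.75-fold, and it passed the filter on both arrays. Among its 500 genes of like signal the SD of the differences was 0.21, and all but the outermost 2.5% on each side lay between -0.43 and 0.35. None of the 500 was as much higher, and 1 was at least as far apart in either direction. That gene was the vault RNA VTRNA1-1, whose signal fell from 6.15 on the romidepsin array to 4.99 on the combination array. BBC3 thus lay outside the range of its like-signal neighbours on the higher side. The 5 genes were chosen with earlier results of these arrays known. This place may therefore reflect the choice, and it is a description only.

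The other genes at least 1.5-fold apart in the BBC3 neighbourhood numbered 3 higher and 2 lower. The higher ones were PRR35, a proline-rich protein gene, at 0.73, the pseudogene EMBP1 at 0.61 and the microRNA gene MIR4489 at 0.60. The lower ones were VTRNA1-1 at -1.16 and UBE2Q2, a ubiquitin-conjugating enzyme gene, at -0.59. Of the 5304 kept genes with a mean signal at or above that of BBC3, 3 were at least as much higher with sildenafil, BBC3 included. The other two, named after their values were seen, were the microRNA genes MIR3159 (0.92) and MIR1281 (0.88). Among these 5304 genes, BBC3 was thus the sole protein-coding gene with so large an increase. Over all 10081 kept genes, 22 were at least as much higher, BBC3 included. BBC3 rests on 1 probe set, so no second measurement on the array bears on it.

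**Figure D2:**
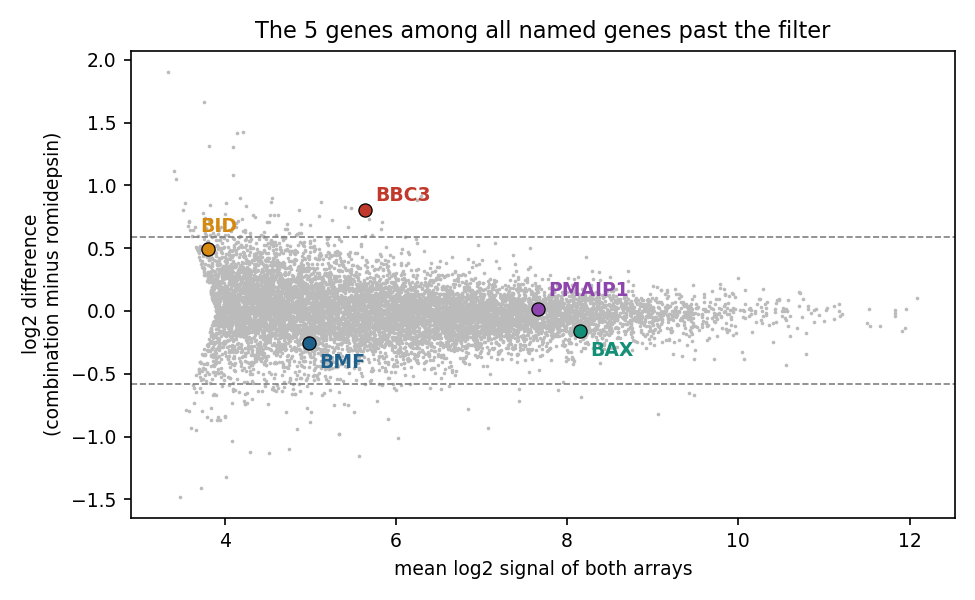
Log2 difference between the arrays (vertical axis) against the mean log2 signal of both arrays (horizontal axis) for the 10081 kept genes, in grey, with the 5 genes in colour; dashed lines mark 1.5-fold. BBC3 at 0.81 lies above the grey cloud at its signal, while BID at 0.50, BMF at -0.25, BAX at -0.16 and PMAIP1 at 0.02 lie within it.

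PMAIP1 (NOXA, gene ID 5366) had a log2 signal of 7.65 with romidepsin alone and 7.67 with sildenafil added. The difference was 0.02, a ratio of 1.01, and among its 500 genes of like signal (SD 0.13) 169 were at least as much higher. Its sign turned to -0.01 when both arrays were centred on their medians, so it has no direction. The differences of PUMA and NOXA, both stress-induced BH3-only genes, lay 0.79 apart on the log2 scale.

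BID (gene ID 637) had a log2 signal of 3.56 with romidepsin alone and 4.06 with sildenafil. The difference was 0.50, a ratio of 1.41-fold. Only the combination array reached the filter, and on the mean of both arrays, 3.81, BID did not pass. Among its 500 genes of like signal the spread was wide (SD 0.36), and 49 of them were at least as much higher. Of these 500 genes, 457 likewise passed on 1 array only, so their differences are shaped by the filter; without a filter, 5.60% of 500 like genes were as much higher, in place of 9.80%. BID therefore lay within the range of its neighbours, and its signal was too low for its difference to be told from theirs.

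BMF (gene ID 90427) had a log2 signal of 5.11 with romidepsin alone and 4.86 with sildenafil, a difference of -0.25. It was the only one of the 5 genes with a second probe set, which was dimmer and stood at 3.03 without and 2.76 with sildenafil, a difference of -0.27. Both probe sets were lower with sildenafil by nearly the same amount, although the second did not reach the filter on either array. Among 500 genes of like signal (SD 0.25), 71 were at least as much lower with sildenafil.

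BAX (gene ID 581), the effector among the 5, had a log2 signal of 8.23 with romidepsin alone and 8.07 with sildenafil. The difference was -0.16, and among 500 genes of like signal (SD 0.13) 70 were at least as much lower. Its neighbours themselves had a median of -0.02. BAX and BMF were therefore both lower by amounts that about 14% of like-signal genes also showed (14.0% and 14.2%).

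**Figure D3:**
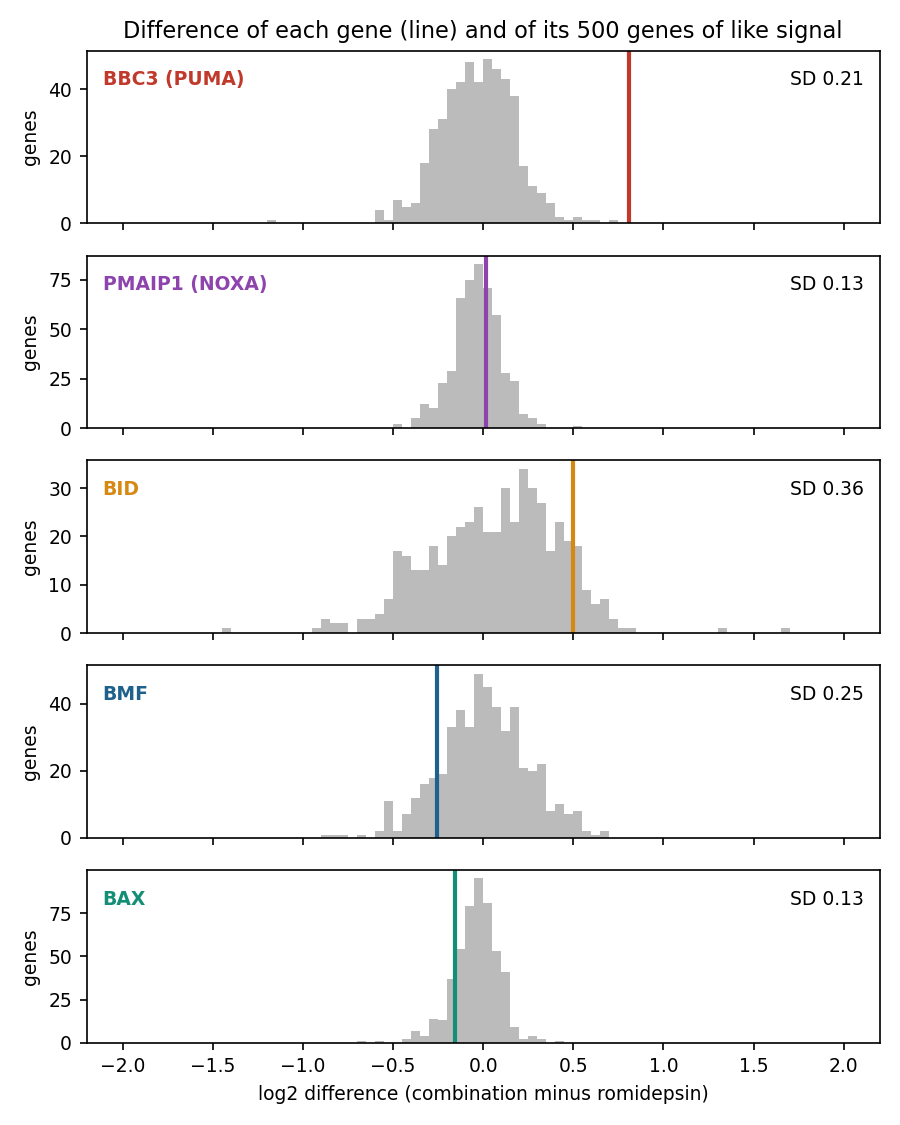
Histograms of the log2 difference (horizontal axis) of the 500 genes of like signal for each of the 5 genes, with the number of genes on the vertical axis and the gene itself as a coloured line. The BBC3 line lies beyond all 500 neighbours on the higher side (SD 0.21), while the lines of the other 4 lie inside their histograms; the BID histogram is the widest (SD 0.36).

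With 2 arrays, likeness of pattern could be measured only as the distance between pairs of log2 signals. Probe brightness therefore enters these distances. The 3 kept genes nearest to BBC3 were PRR35 (5.32 without and 6.06 with sildenafil, distance 0.08), MIR4489 (distance 0.15) and EMBP1 (0.18). Nearest to PMAIP1 were PHF6, VPS26A and RBM15, all at a distance of 0.02. BID had LINC00424 (0.02), KLK15 (0.03) and BEND3P3 (0.04) nearest to it, BMF had NECTIN4, CLHC1 and GNAS-AS1, and BAX had ANTXR2, CDC42SE1 and MTM1. The 3 nearest to BBC3 lay further away than those of any of the other 4 genes.

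Among the remaining pro-apoptotic relatives the differences were small. Of 8 BH3-only genes listed, 7 were named and 5 passed, 4 of them higher and 1 lower, with a median of 0.12, beside -0.01 for all kept genes; 4 of these 5 genes are among those chosen here, so the median says little of the class. BAD, a BH3-only protein controlled by phosphorylation, was at 0.12 (5.97 without and 6.09 with). BCL2L11, which encodes BIM, stood at 2.51 and 2.49, and BIK at 3.63 on both arrays, all below the filter. HRK is not analysed here. The effectors BAK1 (6.11 and 6.04) and BOK (5.41 on both arrays) differed by -0.07 and -0.00, so none of the 3 effectors was higher as deposited, while BOK turned sign under quantile and lowess scaling.

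The anti-apoptotic relatives that passed the filter lay at or below 0 as deposited. Of 6 listed, 5 were named and 4 passed, all lower as deposited, with a median of -0.15; 1 of the 4, BCL2, turned sign under quantile and lowess scaling. BCL2 was at -0.00 (8.07 on both arrays), MCL1 at -0.06 (8.42 and 8.37), BCL2L1, which encodes BCL-XL, at -0.24 (7.37 and 7.13), and BCL2A1, which encodes BFL-1, at -0.45 (5.35 and 4.89). BCL2L10 was below the filter on both arrays (2.84 and 2.98) and stood at 0.13. Relative to these antagonists, BBC3 was higher with sildenafil by between 0.81 (against BCL2) and 1.26 (against BCL2A1), a shift in the ratio of signals of 1.75-fold to 2.40-fold. PMAIP1 was 0.07 higher relative to MCL1 and 0.47 relative to BCL2A1, the antagonists that NOXA binds best; the second value comes almost wholly from BCL2A1 itself. BAX was between -0.16 (against BCL2) and 0.29 (against BCL2A1). These are ratios of array signals and not of protein.

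More distant relatives and partners of the family, on a list of proteins outside the core group, were higher with sildenafil in the 4 that passed the filter. Of 8 listed, 7 were named; the 4 had a median of 0.12 as deposited (0.09 to 0.17 under the other scalings, with 4 higher each time), beside -0.01 for all kept genes. MOAP1, a partner that BAX binds, was at 0.18 (5.64 and 5.82), the mitophagy receptor BNIP3L at 0.13 (8.30 and 8.43), BCL2L12 at 0.10 and BCL2L13 at 0.09. None reached 1.5-fold. The 3 that did not reach the filter were BNIP3 at 0.53, BCL2L14 at -0.08 and BCL2L15 at -0.54.

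Upstream of BID, 3 of 12 listed genes of the death receptor arm were named, and caspase 8 was not among them. TRADD, an adaptor of TNF receptor 1, was 0.31 higher with sildenafil (6.70 and 7.01), a difference that 6 of its 500 like-signal genes matched or exceeded. FADD, the adaptor that recruits caspase 8, was at -0.01 (6.36 and 6.35), but its second probe set was at 0.31 (5.34 and 5.65), so its probe sets disagree. CFLAR, an inhibitor of caspase 8, was at 0.00. FADD and CFLAR were so near 0 that the list held 2 higher and 1 lower gene as deposited, 1 higher and 2 lower after median centring, and 3 higher after quantile or lowess scaling.

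A list of transcription factors known to act on BBC3, PMAIP1 or BMF also held TRIB3 (0.07), which is not itself a transcription factor. Of its 16 genes 13 were named and 11 passed, with 6 higher, 5 lower and a median of 0.05. FOXO3, a forkhead factor that can activate BBC3, was at -0.32 (5.89 and 5.57), although its second probe set was at -0.06, and FOXO1 was at -0.28 (6.19 and 5.90). The GC box-binding factor SP1 was at 0.20 (7.34 and 7.54). ATF4 was at -0.18 and DDIT3, which encodes CHOP, at -0.07. E2F1 was at 0.08, MYC at 0.05 and STAT5B at 0.10. None of the 11 reached 1.5-fold.

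Downstream and at the mitochondrion, differences were likewise under 1.5-fold. Of 14 mitochondrial partners and membrane proteins, 12 were named and passed, with 11 lower, 1 higher and a median of -0.14 (-0.10 after lowess scaling, with 10 lower). Over all 10081 kept genes 5282 were lower, with a median of -0.01. The list as a whole was not set beside genes of like signal, and bright genes leaned lower. The like-signal genes of PMAIP1 and BAX had medians of -0.03 and -0.02. For the 11 lower genes singly, between 33 (TIMM23) and 243 (TOMM20) of 500 like-signal genes were at least as much lower. TOMM22, an import receptor, was at -0.22 (7.60 and 7.38), TIMM23 at -0.20 (9.53 and 9.32) and the fusion protein gene MFN1 at -0.17 (7.45 and 7.28). MTCH2, the receptor for cleaved BID, was at -0.11, and VDAC2, which retains BAK1 and BAX at the membrane, at -0.15. Of the apoptosome and proteins released from mitochondria, 3 of 7 were named: APAF1, the apoptosome scaffold, was at 0.10 (6.78 and 6.88), HTRA2 at -0.11 and ENDOG at -0.08. Of caspases and their substrates only PARP1 was named (0.02). Of 6 IAP genes, which encode caspase inhibitors and related proteins, 5 were named and passed, 3 higher and 2 lower with a median of 0.07; BIRC2 was at -0.31 (7.38 and 7.07), XIAP at 0.22 (5.01 and 5.23) and BIRC7 at 0.13.

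**Figure D4:**
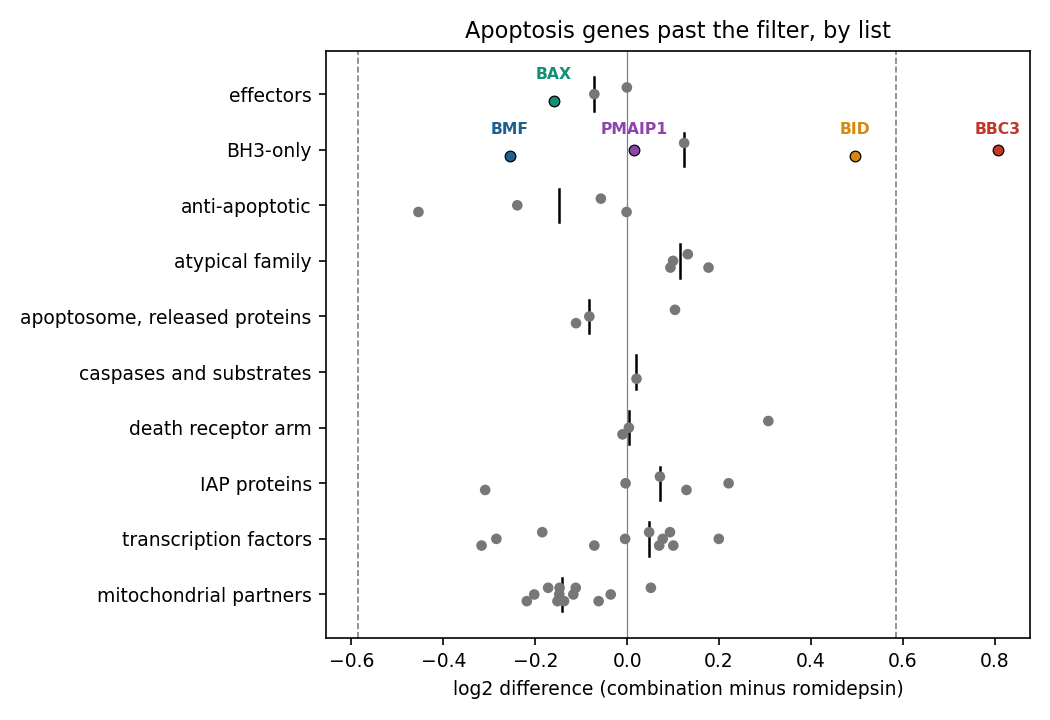
Log2 difference (horizontal axis, combination minus romidepsin) of each apoptosis gene past the filter, by list (vertical axis), with the 5 genes named and coloured, a black bar at each list's median and dashed lines at 1.5-fold. BBC3 at 0.81 is the single point past 1.5-fold among 51 genes, beside 1.99% of all kept genes, so this count is near the background.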

How the data were processed

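Per the labels' protocols, total RNA of 2 SNK6 cultures was converted to cDNA with a whole-transcript amplification kit and biotin-labelled for array hybridisation. The authors deposited log2 signals for 53617 probe sets; for their summarisation and normalization, the sources used here give no method. The log base was inferred: the highest value, 13.05, exceeds the natural log of a 16-bit scanner ceiling (11.1) but not its log2 (16). Sorted columns differed by at most 0.15, so a change shared by most transcripts would not be seen. The platform annotation named 16098 probe sets with 1 symbol (14884 genes); the other 37519 are unnamed here. Each gene was represented by its brightest probe set on average. Like signal means the 500 kept genes nearest in mean signal.

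The members and lists were chosen with earlier results of these data known; 1 of the lists set up for this work is not reported here. Text names the 5 members, the BCL2 family, the 3 kept members of each other list furthest apart (further ones, such as PRF1 and NCAM1 for the check of cell type, were chosen after their values were seen), the 3 nearest genes per member and the BBC3 neighbours past 1.5-fold. With 1 array per group no test was possible, and no read depth exists: the number of arrays limits precision. Alternatives changed the scaling between arrays (median, quantile, lowess with a span of 0.3), the filter, the threshold, the probe set and the neighbourhood. Calculations were checked on simulated data with planted differences larger than that of any of the 5 members. That check covers the code and not how the rules behave at the sizes reported here. Python 3.11.15, numpy 2.4.6, pandas 2.3.3 and statsmodels 0.14.6 were used. Promoter windows came from RefSeq; all 5 genes matched.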

Additional observations from a re-analysis of the deposited data

How the results depend on the processing

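The differences of the 5 genes moved by less than the SD of their like-signal genes under all 25 alternatives of scaling and probe set choice. BBC3 ran from 0.78 to 0.84. Median and quantile scaling had little room to move them, since the sorted columns differed by at most 0.15. The choice of probe set could change BMF alone, since the other 4 genes have 1 probe set each. No paired analysis was possible because each group holds 1 array, and for the same reason no replicate could be left out. At 1.2-fold 2 of the 5 genes (BBC3 and BID) and 1950 of all kept genes were past the threshold; at 2-fold 0 of the 5 and 18 of all genes were. Without a signal filter 379 of 14884 genes were past 1.5-fold. The share of like-signal genes at least as much higher as BBC3 was 0 of the 500 nearest, 0.1% of the 1000 nearest, and 0.6% of the 500 nearest probe sets, named or not. For BID it was 9.80%, against 18.6% when neighbours were taken by the romidepsin array alone and 5.6% without a filter. The BH3-only median was 0.016 without a filter, where 2 more genes near 0 entered, and the death receptor median rose to 0.15 with probe sets averaged, through the second probe set of FADD. The other 21 of 25 alternatives for the places and 58 of 60 for list medians stayed within 1.5 times or 0.1 of the value given. Signal over background is unknown, which limits what BID can show.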
